A study of Mus musculus with 8 samples.

Results

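The comparison described here sets CD34-negative hair follicle cells, labelled hair germ, against CD34-positive bulge cells, with wild-type (WT) and Runx1 transgenic mice pooled. Its members are all 8 arrays of the series, taken by sample title: 4 hair germ arrays and 4 bulge arrays, 2 of each from either genotype. Freshly isolated mouse skin cells were sorted for GFP driven by the keratin 15 gene, for α6-integrin and then for presence or absence of the surface protein CD34. RNA of each sorted sample was hybridised to an Affymetrix Mouse Genome 430 2.0 array. The skin was in telogen, when follicles rest between rounds of hair growth. The 4 groups were bulge and hair germ of WT mice and bulge and hair germ of Runx1 iTG mice. Runx1 iTG mice carried a transgene for the transcription factor Runx1, described in the labels as Tet-on. All 8 samples, controls included, came from mice given food with doxycycline (1 g per kg) over 1 day, with repression of H2BGFP named as the purpose. Mice were at postnatal day 20, except for replicate 2 of both Runx1 iTG populations, at day 21. The labels call the 2 arrays of a group biological replicates. Strain, sex, any pooling of animals and the promoter that drives the transgene are not given in the sources used here.

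The bulge is the part of the follicle that holds long-lived, slowly cycling stem cells. The hair germ lies below it, carries P-cadherin and little CD34, and enters division first when a new hair begins to grow. The sebaceous gland, whose cells fill with lipid, and the upper follicle or isthmus lie above the bulge.

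CD34-negative arrays stood apart from bulge arrays on the first principal component, which held 39.3% of the variance. Over genes, Spearman's rho was 0.949 to 0.958 between replicates of a group and 0.888 to 0.92 between arrays of different population. Between 69% and 77% of probe sets per array lay above a background signal of 31.1, set from bacterial control probe sets. Xist, the RNA that coats the inactive X chromosome of females, had a signal of 30.2 to 72.5 on the 4 arrays numbered 1 and of 9973 to 11100 on the 4 arrays numbered 2. The Y-linked gene Kdm5d ran the other way, at 403 to 590 and 15.7 to 51.1. Each population and genotype held 1 array of either kind.

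The sort genes describe the gate and are given without a test of it. Signals of Cd34 were 7079 and 11210 on WT bulge arrays, 4902 and 8596 on Runx1 iTG bulge arrays, 3.77 and 53.2 on WT CD34-negative arrays and 2.42 and 5.24 on Runx1 iTG CD34-negative arrays. Bulge was at least 244-fold brighter, and WT hair germ replicate 2 was the CD34-negative array that stayed above background. Krt15, whose promoter marked all sorted cells, was 27180 to 36190 in bulge and 11760 to 21880 in CD34-negative cells, a 1.86-fold difference. Itga6, the α6-integrin gene, differed by −0.06 on the log2 scale, and its arrays overlapped (5964 to 6678 in bulge and 4705 to 7077 in CD34-negative cells).

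The bulge label was set against its genes, and the hair germ label against those of the hair germ. Of 37 measured bulge genes, 30 passed as lower in CD34-negative cells, where 9.44% of all 18193 genes were lower and 9.58% higher. Of 34 measured hair germ and matrix genes, however, 12 were also lower there and 6 higher. Cdh3, the P-cadherin gene that defines the hair germ, was 910 to 1619 in bulge and 400 to 1062 in CD34-negative cells, 1.98-fold lower in the latter with overlapping arrays (adjusted p = 0.0182). Edar and Bmp4 were among the 6 members that rose, and Trps1, Dlx3, Msx2 and Lef1 among the 12 that fell. Proliferation genes rose for 33 of 39 members. Genes of the upper follicle and sebaceous gland rose for 9 of 19 and 12 of 14. Since hair germ genes went both ways, with more falls than rises, the population is called CD34-negative below. In bulk RNA, fewer cells of a type and less RNA per cell cannot be told apart.

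**Figure D1:**
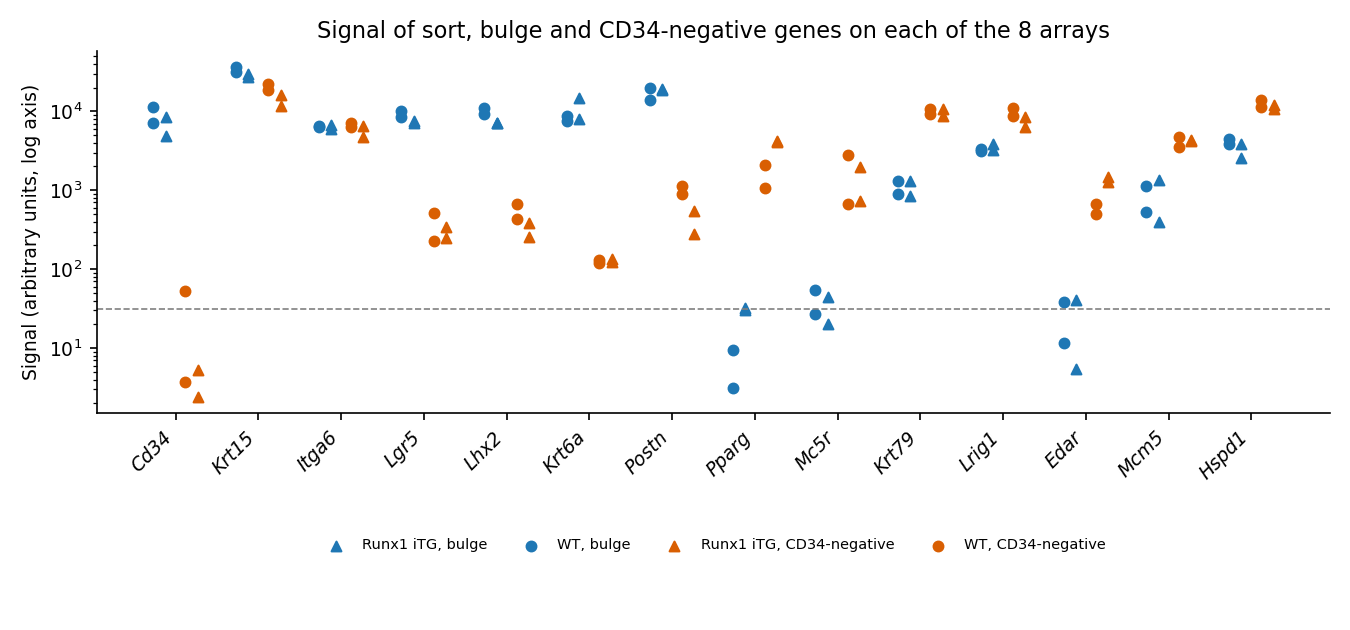
Signal (log axis, arbitrary units) of 14 genes on each of the 8 arrays. Blue points are bulge and orange points CD34-negative arrays, circles WT and triangles Runx1 iTG, and the dashed line is the background of 31.1. Cd34, Lgr5, Lhx2, Krt6a and Postn are lower, and Pparg, Mc5r, Krt79, Lrig1, Edar, Mcm5 and Hspd1 higher, on all 4 CD34-negative arrays.

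With genotype as a term and 4 arrays a side, 3461 of 18193 genes (19%) passed a limma adjusted p of 0.05. In CD34-negative cells 1743 were higher (9.58%) and 1718 lower (9.44%). The median log2 difference over all genes was −0.0908. When arrays were brought to a common median in place of a common 75th percentile, that median became 0.198 and 2816 of 3969 calls were higher, a share of 70.9% against 50.4%. No gene called under the first scaling changed sign under the second. The arrays of the 2 populations did not overlap for 4075 genes (22.4%).

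Most calls were of moderate size. Between 1.5- and 4-fold lay 2319 of them (12.7% of genes tested), 1326 higher (7.29%) and 993 lower (5.46%), with a median fold of 2.17 and a median standard error (SE) of 0.232 on the log2 scale. A further 1023 exceeded 4-fold and 119 lay under 1.5-fold. Of the 2319 moderate calls, 1196 (51.6%) passed in neither genotype alone, where 2 arrays stood against 2 in a fit of all 8 arrays. Another 386 passed in each genotype, 205 in WT only and 532 in Runx1 iTG only. The same arrays enter the pooled and the separate comparisons, so these counts describe resolution and are no repeat. Above 4-fold, 227 of 1023 (22.2%) passed in neither genotype alone. The median SE over all genes was 0.365 pooled and 0.515 within a genotype. All 2319 moderate calls had the same sign in both genotypes, where 70.4% of all genes did. For 1965 of them the 4 and 4 arrays did not overlap, where 22.4% of all genes did not. Calls were chosen on the pooled difference of these same arrays, which favours both outcomes, so these counts are no separate support. Among other probe sets of the 2319 genes that were above background, 2285 of 2546 (89.7%) pointed the same way, against 75.4% over all genes. With 4 arrays a side the precision of each value is limited, and the part of amplification from 5 ng of RNA was not tested.

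**Figure D2:**
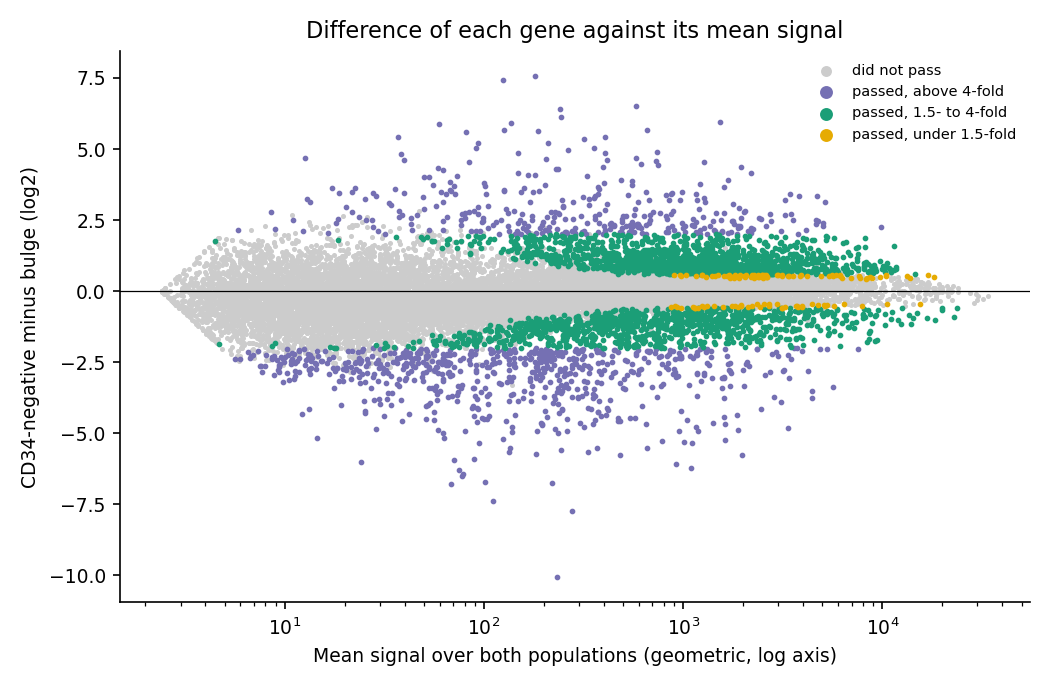
Log2 difference, CD34-negative minus bulge, of each of 18193 genes against its mean signal over both populations (log axis). Purple points passed at above 4-fold, green at 1.5- to 4-fold and yellow under 1.5-fold, and grey points did not pass. The 2319 green points lie in bands on either side of 0, and differences among dim genes are wide without passing.

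**Figure D3:**
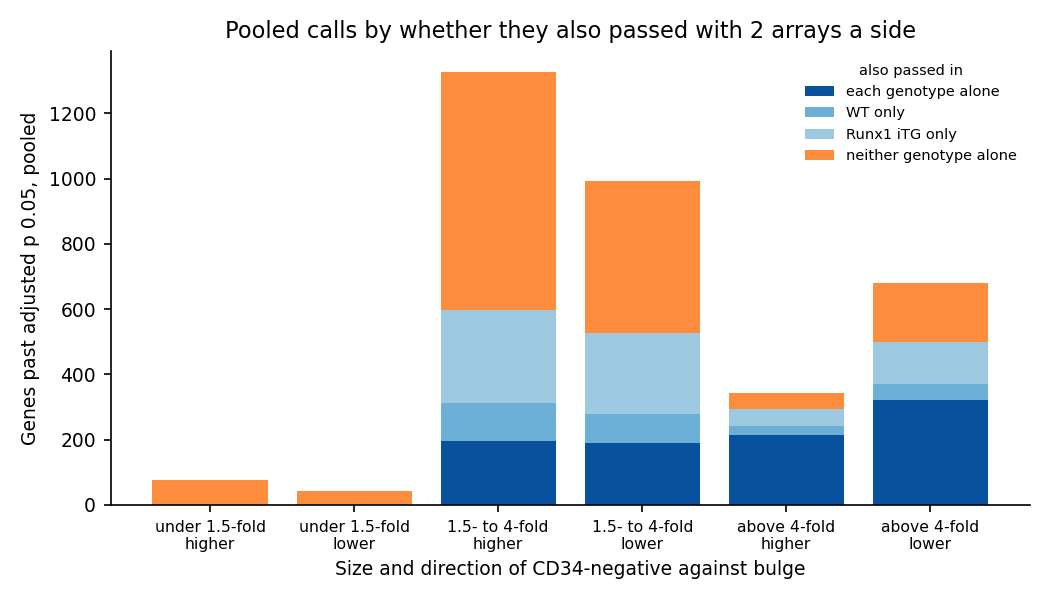
Number of genes past the pooled threshold, by size and direction of the difference, with each bar split by whether the gene also passed with 2 arrays a side. Orange segments passed in neither genotype alone: 1196 of 2319 genes at 1.5- to 4-fold and 227 of 1023 above 4-fold.

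The 12 moderate rises with the smallest p and no overlap included 3 genes that handle fatty acids. Hsdl2, a peroxisomal enzyme of the short-chain dehydrogenase family, was 1679 and 1231 in WT bulge, 1328 and 1458 in Runx1 iTG bulge, 4329 and 5841 in WT CD34-negative cells and 5315 and 6492 in Runx1 iTG CD34-negative cells. All 4 CD34-negative arrays exceeded every bulge array, and Hsdl2 rose 3.84-fold (log2 1.94, SE 0.17, n = 4 per population, adjusted p = 3.01e-05). Slc25a20, which carries acylcarnitines into mitochondria, was 501 to 1079 in bulge and 2160 to 3238 in CD34-negative cells and rose 3.65-fold (SE 0.17, adjusted p = 3.22e-05). Abcd3, a peroxisomal fatty acid transporter, was 2239 to 3022 in bulge and 6146 to 8057 in CD34-negative cells and rose 2.89-fold (adjusted p = 8.63e-05). With the mean of its probe sets in place of the brightest, Abcd3 differed by 0.39 and did not pass (adjusted p = 0.58). The transcription factor gene Cebpa, a regulator of lipid-storing and epidermal cells, was 2565 and 2078 in WT bulge, 2222 and 2182 in Runx1 iTG bulge, 5784 and 6920 in WT CD34-negative cells and 6886 and 8352 in Runx1 iTG CD34-negative cells. The bulge values lay close together, and Cebpa rose 3.07-fold (log2 1.62, SE 0.15, adjusted p = 4.55e-05).

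The other genes of this kind had mixed roles. Hspd1, the mitochondrial chaperonin, was 4418 and 3908 in WT bulge, 3841 and 2525 in Runx1 iTG bulge, 11370 and 13980 in WT CD34-negative cells and 12150 and 10840 in Runx1 iTG CD34-negative cells. It rose 3.34-fold with a wide gap between the populations (log2 1.74, SE 0.17, adjusted p = 5.33e-05). Hipk2, a kinase of stress responses, rose 3.31-fold, from 756 to 914 in bulge to 2313 to 3225 in CD34-negative cells. Eif4ebp1, a brake on translation that mTOR releases, rose 3.08-fold, from 424 to 960 to 1592 to 2495. A dimmer probe set of Eif4ebp1 differed by −0.27 (limma adjusted p over all probe sets = 0.73), though the gene passed with the mean of its probe sets. Ifitm3, an interferon-induced membrane protein gene, rose 3.23-fold, from 2649 to 4309 to 9655 to 12450. Secisbp2l, related to selenoprotein synthesis factors, rose 3.65-fold, and the nucleosome-binding protein gene Hmgn5 3.91-fold. Mreg, which acts in organelle transport, rose 3.99-fold. Trim62, a ubiquitin ligase gene, rose 3.86-fold but did not pass with the mean of its probe sets (adjusted p = 0.156). The adjusted p of these 7 genes lay between 4.84e-05 and 9.73e-05.

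The 12 moderate falls with the smallest p and no overlap included genes that encode a laminin, its receptor and proteins that bind actin. Slc6a6, the taurine transporter, was 16660 and 17040 in WT bulge, 13050 and 16290 in Runx1 iTG bulge, 4028 and 4531 in WT CD34-negative cells and 4956 and 4527 in Runx1 iTG CD34-negative cells. It fell 3.48-fold (log2 −1.80, SE 0.14, n = 4 per population, adjusted p = 1.49e-05), and the CD34-negative arrays spanned a narrow range. Lama5, a laminin chain of epithelial basement membranes, was 2161 to 3193 in bulge and 633 to 897 in CD34-negative cells and fell 3.63-fold (SE 0.17, adjusted p = 4.04e-05). Bcam, a receptor for that laminin chain, was 1868 to 2511 in bulge and 512 to 748 in CD34-negative cells and fell 3.72-fold (adjusted p = 4.05e-05). Macf1, which links actin and microtubules, fell 3.20-fold, from 4928 to 7128 to 1711 to 2001. Pfn2, a profilin that binds actin, fell 3.87-fold, from 4973 to 8628 to 1606 to 2055. Absence of overlap between the populations was a condition for naming these genes.

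The remaining moderate falls with the smallest p and no overlap covered other roles. Ackr4, a receptor that scavenges chemokines, fell 3.20-fold, from 13240 to 17720 in bulge to 4133 to 5156 in CD34-negative cells. A dimmer probe set of Ackr4 differed by −0.93 (limma adjusted p over all probe sets = 0.088), though the gene passed with the mean of its probe sets. The secreted keratinocyte protein gene Dmkn fell 3.40-fold, from 14820 to 19200 to 4446 to 6410. Bnc2, a zinc finger gene, fell 3.52-fold, and Tenm2, a teneurin adhesion gene, 2.89-fold. Snx7, a sorting nexin gene, fell 3.57-fold, Sirpa, a receptor for CD47, 2.76-fold and the centrosomal gene Tacc2 2.94-fold. Adjusted p of these 7 genes lay between 2.45e-05 and 6.18e-05.

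Above 4-fold, the genes with the largest differences were partly dark in one population. Pparg, the nuclear receptor that drives lipid storage in fat and sebaceous cells, was 9.48 and 3.08 in WT bulge, 30.5 and 32.1 in Runx1 iTG bulge, 1070 and 2070 in WT CD34-negative cells and 4171 and 4079 in Runx1 iTG CD34-negative cells. The bulge mean lay below background, so Pparg was at least 79.6-fold brighter in CD34-negative cells (adjusted p = 2.59e-06). The lipoprotein lipase gene Lpl rose 91.6-fold from bulge values of 9.90 to 244 (adjusted p = 3.03e-05). The peroxisomal thiolase gene Acaa1b rose 51.3-fold. Avpr1a, a receptor for vasopressin, rose 62.2-fold. Kcnk1, a potassium channel gene, was at least 52.9-fold, Pdk4, a mitochondrial kinase that limits glucose oxidation, at least 34.1-fold, Tlcd3b at least 66.1-fold and Gsg1l at least 14.6-fold brighter. Akr1c18, a steroid dehydrogenase gene, was 310 and 508 on CD34-negative arrays numbered 1 and 13240 and 11540 on those numbered 2, and 2.77 to 7.19 and 113 to 210 on the respective bulge arrays. It was at least 71.1-fold brighter (adjusted p = 0.0158), and its signals were higher on the arrays with an Xist signal in both populations. It did not pass without WT bulge replicate 1, WT hair germ replicate 2 or Runx1 iTG hair germ replicate 2, nor without the intensity trend (adjusted p up to 0.0747).

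The largest falls included matrix and ion channel genes. Col6a1, a collagen VI chain, was 2651 to 5856 in bulge and 2.42 to 59.1 in CD34-negative cells, at least 131-fold lower (adjusted p = 3.03e-05). Its partner Col6a2 was at least 73.6-fold lower. Chat, which makes acetylcholine, was 849 to 2324 in bulge and below background on all 4 CD34-negative arrays, at least 46.2-fold lower (adjusted p = 9.77e-06). The potassium channel genes Kcnma1 and Kcnk2 were at least 22.9- and 21.3-fold lower, the ubiquitin ligase gene Pdzrn4 at least 33.6-fold, Plcl1 at least 23.6-fold and the peptidase inhibitor gene Pi15 at least 23.6-fold. Krt6a, a keratin of the inner bulge and companion layer, was 7627 to 14570 in bulge and 119 to 135 in CD34-negative cells and fell 74-fold (adjusted p = 1.98e-07).

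Bulge stem cell genes were lower in CD34-negative cells for 30 of 37 measured members and higher for 1, with a median log2 difference of −2.71 against −0.0908 over all genes. Lhx2, a transcription factor that maintains the bulge, was 9296 and 11080 in WT bulge, 7077 and 7099 in Runx1 iTG bulge, 676 and 437 in WT CD34-negative cells and 255 and 383 in Runx1 iTG CD34-negative cells. It fell 20.6-fold without overlap (adjusted p = 8.14e-07). Lgr5, a receptor for R-spondins found on follicle stem cells, was 7056 to 9956 in bulge and 229 to 521 in CD34-negative cells and fell 25.6-fold (adjusted p = 1.74e-06). Sfrp1, a secreted WNT inhibitor, fell 37.7-fold, Tgm5, a transglutaminase gene, 21.8-fold and Fzd2, a WNT receptor, 13.2-fold. Falls within the moderate range were seen for 7 bulge genes. Among them Sox9, a transcription factor of the outer root sheath, was 7220 to 9370 in bulge and 1485 to 3791 in CD34-negative cells (3.29-fold, adjusted p = 0.000621). The member that rose was Elovl6, a fatty acid elongase gene, 8.80-fold (1302 to 2612 in bulge and 14490 to 16680 in CD34-negative cells).

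Of the hair germ and matrix list, 6 of 34 members rose, 12 fell and 16 did not pass, with a median of −0.38, or −0.0742 with members below background set to their bound. Edar, the receptor for ectodysplasin in follicle formation, was 5.40 to 40.5 in bulge and 501 to 1482 in CD34-negative cells, at least 28.6-fold brighter (adjusted p = 0.000194). Its adaptor gene Edaradd rose 2.07-fold, the ligand gene Bmp4 6.92-fold and the homeobox gene Cux1 2.75-fold. Other probe sets of Cux1 included log2 differences of 0.17 and 1.47 (limma adjusted p over all probe sets = 0.83 and 0.032). Members that fell included Trps1 (14.6-fold), the homeobox genes Dlx3 (14.3-fold) and Msx2 (10.8-fold) and the transcriptional regulator gene Cited2 (5.19-fold), with adjusted p between 2.26e-05 and 8.43e-05. Lef1, which acts with β-catenin in hair progenitors, was 354 to 1796 in bulge and 138 to 232 in CD34-negative cells and fell 3.72-fold (adjusted p = 0.0124). Without the intensity trend Lef1 did not pass (adjusted p = 0.0531).

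Upper follicle and isthmus genes rose for 9 of 19 measured members and fell for 4 (median 0.755). Lrig1, which restrains growth factor receptors and marks stem cells of the isthmus, was 3309 and 3139 in WT bulge, 3268 and 3904 in Runx1 iTG bulge, 11040 and 8821 in WT CD34-negative cells and 6400 and 8576 in Runx1 iTG CD34-negative cells. All CD34-negative arrays lay above all bulge arrays, and Lrig1 rose 2.52-fold (log2 1.33, SE 0.17, adjusted p = 0.000387). Plet1, a surface protein gene of the isthmus, was 1155 to 2374 in bulge and 4459 to 9094 in CD34-negative cells and rose 3.72-fold (adjusted p = 0.000318). Krt79, a keratin of the upper duct, was 852 to 1306 in bulge and 8647 to 10660 in CD34-negative cells and rose 9.18-fold, and the surface protein gene Ly6e rose 10.1-fold. Gata6, a transcription factor of the same region, rose 8.16-fold (adjusted p = 0.00616). Lgr6 behaved otherwise: this stem cell receptor of the upper follicle was 4172 to 6958 in bulge, 4906 and 4632 in WT CD34-negative cells and 1445 and 891 in Runx1 iTG CD34-negative cells. It fell 2.09-fold pooled (adjusted p = 0.0377), but WT CD34-negative arrays overlapped bulge. The Lgr6 call was lost without WT bulge replicate 1, WT hair germ replicate 2 or any of the 4 Runx1 iTG arrays (adjusted p up to 0.192 over all alternatives). Krt17 fell 2.85-fold, Krt23 1.90-fold and Cldn4, a tight junction gene, at least 4.42-fold. Krt17 did not pass with the mean of its probe sets (adjusted p = 0.0625), nor Krt23 under median scaling or with day 20 arrays only (up to 0.0921). The Cldn4 call was lost without WT bulge replicate 1, WT hair germ replicate 2 or either Runx1 iTG bulge array (adjusted p up to 0.0657).

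Sebaceous genes rose for 12 of 14 measured members and fell for 1 (median 3.04). Mc5r, the melanocortin receptor of the gland, was 20.1 to 54.6 in bulge and 675 to 2763 in CD34-negative cells and rose 37.3-fold. Far2, which makes fatty alcohols for waxes, was 244 to 902 in bulge and 5746 to 11420 in CD34-negative cells and rose 20.6-fold. The elongase gene Elovl3 rose 16.4-fold and the acyl-CoA synthetase gene Acsbg1 12.8-fold. Prdm1, a transcriptional repressor gene, fell 4.57-fold. Summed over its members, the list had a signal of 12620 to 23360 on bulge arrays and of 66900 to 100000 on CD34-negative arrays.

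Cell cycle genes were higher in CD34-negative cells. Of 39 measured proliferation genes 33 rose and 0 fell, with a median log2 difference of 1.67. Of the rises 24 lay between 1.5- and 4-fold, and 13 of the 33 passed in neither genotype alone. Mcm5, a subunit of the helicase that opens DNA for replication, was 1125 and 530 in WT bulge, 1352 and 396 in Runx1 iTG bulge, 3531 and 4725 in WT CD34-negative cells and 4248 and 4387 in Runx1 iTG CD34-negative cells. CD34-negative arrays were all above bulge, and in bulge the arrays numbered 1 were brighter than those numbered 2 in either genotype. Mcm5 rose 5.58-fold (log2 2.48, SE 0.35, adjusted p = 0.000648). The helicase subunit genes Mcm6 and Mcm3 rose 4.39- and 3.60-fold, and Rrm2, a subunit of ribonucleotide reductase, rose 3.25-fold. With the mean of its probe sets, Mcm6 rose by 1.06 on the log2 scale and did not pass (adjusted p = 0.0598).

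The summed signal of the list repeated the order seen for Mcm5. It was 38510 and 38400 on the bulge arrays numbered 1, 19490 and 20300 on those numbered 2, and 68370 to 95080 on CD34-negative arrays. Sex-linked signals divide the arrays by the same numbers, and their part in this split was not tested. With the replicate number as a term, 3468 genes passed and 95.9% of the pooled calls were kept. Mki67, which marks cells outside rest, was 1106 to 3434 in bulge and 5198 to 7755 in CD34-negative cells and rose 3.03-fold (adjusted p = 0.0112), though it passed in neither genotype alone (adjusted p = 0.1 in WT and 0.127 in Runx1 iTG).

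Promoters of replication genes are shown because their genes moved together. E2F factors drive genes of DNA synthesis at the start of a cell cycle. The E2F motifs TTTGGCGC and TTTCCCGC were searched on both strands of the 250 bases before each start site in RefSeq promoters, build GRCm38.p6. They were found for 6 of 31 proliferation genes with a promoter (19.4%), against 2.3% of 14452 measured genes with a promoter and 1.3% of all 32851 promoters. The motif CCAAT was found for 22 of the 31 (71%), against 39.4% and 33.8%. Windows of 100 bases upstream of 2 helicase genes follow, 5′ to 3′ on the gene's strand, with the E2F match in capitals. The Mcm5 window is chr8:75109314-75109413 (plus strand) and its match ends 142 bases before the start site. The Mcm6 window is chr1:128359731-128359830 (minus strand) and holds 2 matches, the nearer 40 bases before the start site. Both windows lie outside the annotated gene, which was a condition for showing them. They were picked from the 5 of 27 proliferation genes, called higher and with a promoter, that held an E2F match. Genes on an excluded chromosome were not shown.
Mcm5: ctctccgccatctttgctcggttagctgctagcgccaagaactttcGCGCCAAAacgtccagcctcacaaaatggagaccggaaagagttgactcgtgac
Mcm6: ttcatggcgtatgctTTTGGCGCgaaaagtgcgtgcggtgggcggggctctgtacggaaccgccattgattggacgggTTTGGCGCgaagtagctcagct
A match is a description of these letters and not a bound site.

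Inhibitors of cyclin-dependent kinases differed among themselves. Cdkn2c rose 3.69-fold, Cdkn3 3.65-fold and Cdkn1a, a target of p53, 1.97-fold, while Cdkn1b, which holds cells at rest, fell 1.64-fold. Cdkn1b did not pass under median scaling or without the intensity trend (up to 0.111).

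Genes of mitochondrial energy production rose together within the moderate range. Of 34 measured oxidative phosphorylation genes 26 rose and 0 fell, all 26 between 1.5- and 4-fold, and 13 of them passed in neither genotype alone. The median was 0.869 pooled, 0.878 in WT and 0.878 in Runx1 iTG. Cyc1, the cytochrome c1 of complex III, was 2150 and 1269 in WT bulge, 2436 and 1696 in Runx1 iTG bulge, 4482 and 5909 in WT CD34-negative cells and 5832 and 6240 in Runx1 iTG CD34-negative cells. The populations did not overlap, and Cyc1 rose 3.04-fold (log2 1.60, SE 0.20, adjusted p = 0.000279). Cox5a and Ndufa4, subunits of complex IV, rose 2.46-fold (3771 to 5531 in bulge and 9352 to 13230 in CD34-negative cells) and 2.56-fold. Atp5b, the catalytic subunit of ATP synthase, rose 1.86-fold (adjusted p = 0.000621). The summed signal of the list was 172000 and 184200 on the bulge arrays numbered 1, 127400 and 137300 on those numbered 2 and 232300 to 283900 on CD34-negative arrays. Cytosolic ribosomal protein genes, measured on the same arrays, rose for 2 of 26 members and fell for 0 (7.69% called, under the 19% of all genes), with a median of 0.142.

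Glycolysis and hypoxia genes rose for 6 of 26 members and fell for 1 (26.9% called against 19% of all genes, median 0.255). Ldhb, the lactate dehydrogenase subunit of oxidative tissues, was 1334 to 2937 in bulge and 7264 to 14430 in CD34-negative cells and rose 5.64-fold (adjusted p = 9.77e-06). The carbonic anhydrase gene Car12 rose 5.49-fold, Vegfa 5.32-fold and Pgk1 2.27-fold. Hk2, which phosphorylates glucose, was 2515 to 4506 in bulge and 234 to 1081 in CD34-negative cells and fell 6.04-fold (adjusted p = 0.00101). Fatty acid and cholesterol synthesis genes rose for 19 of 31 members and fell for 4 (median 1.25), 12 of the rises being moderate. Srebf1, the transcription factor of fatty acid synthesis, was 766 to 1158 in bulge and 5353 to 6422 in CD34-negative cells and rose 5.95-fold (adjusted p = 5.36e-06), and the acetyl-CoA carboxylase gene Acacb rose 7.32-fold. Members that fell were the desaturase genes Fads1 (3.78-fold) and Fads3 (5.27-fold), the last-step cholesterol enzyme gene Dhcr7 (2.57-fold) and Elovl4 (1.56-fold). Fads3 did not pass without the genotype term (adjusted p = 0.0801), and Elovl4 in 9 of 20 alternatives (adjusted p up to 0.32).

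**Figure D4:**
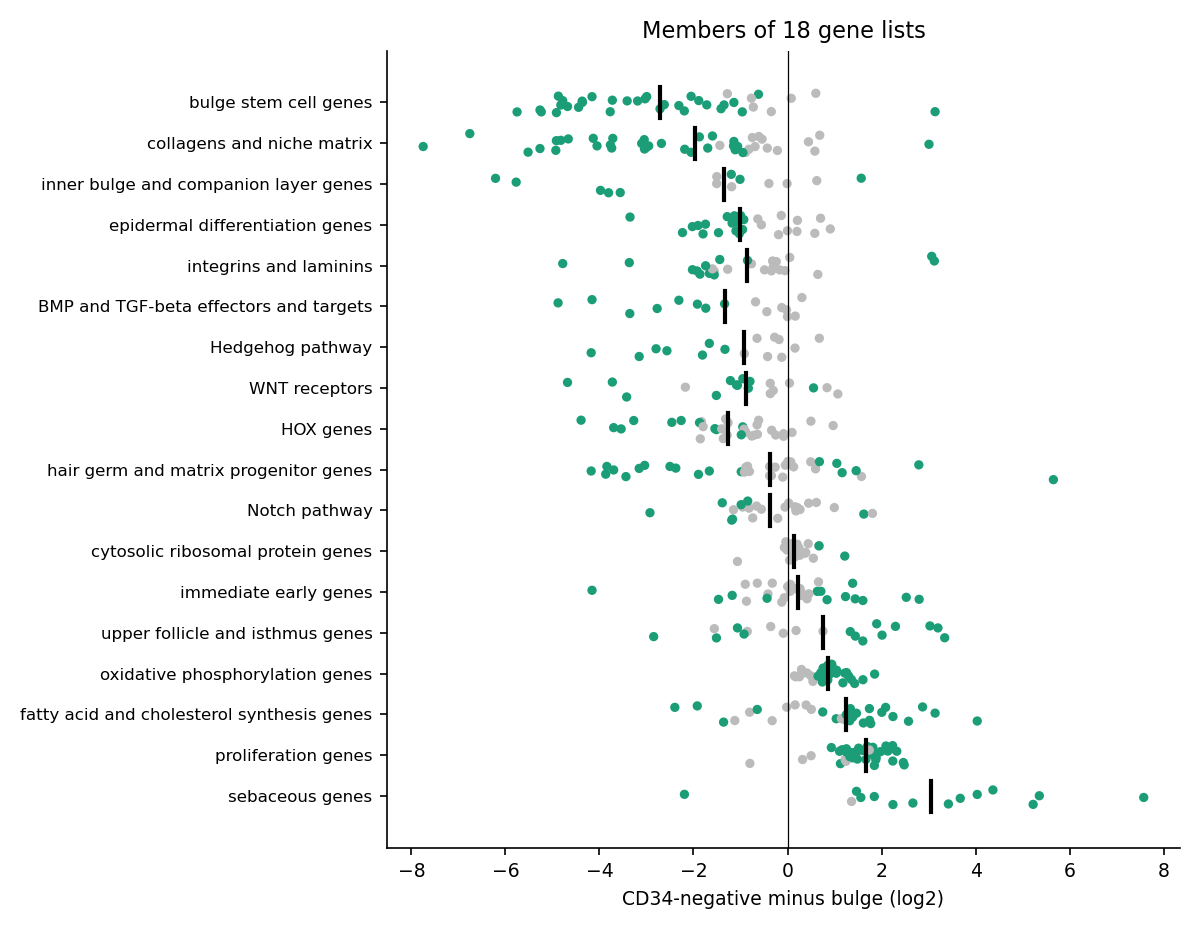
Log2 difference, CD34-negative minus bulge, of each measured member of 18 gene lists. Green points passed an adjusted p of 0.05, grey points did not, and black bars are medians, from −2.71 for bulge genes to 3.04 for sebaceous genes. The 26 green points of oxidative phosphorylation lie in a narrow band above 0.

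In the WNT pathway receptors were lower while most ligands did not pass. Of 23 measured ligand genes 0 rose and 2 fell (8.7% called, under the 19% of all genes). Their median of −0.10 turned to 0.124 under quantile normalization and 0.187 under median scaling. Wnt7b fell 7.38-fold (adjusted p = 0.000112), and Wnt5b 4.50-fold (adjusted p = 0.0219). The call of Wnt5b was lost without WT bulge replicate 1 or 2, Runx1 iTG bulge replicate 1 or Runx1 iTG hair germ replicate 2, and without the intensity trend (adjusted p up to 0.0838). Of 18 receptor genes 10 fell and 1 rose (median −0.893), with Fzd9 10.7-fold and Fzd1 2.86-fold lower beside Lgr5 and Fzd2. Fzd6 rose 1.47-fold and lost its call in 8 of 20 alternatives. Of 19 inhibitor genes 4 fell and 1 rose (26.3% called against 19% of all genes). Their median of −0.22 turned to 0.0772 under median scaling. Dkk3 fell 29.3-fold, Wif1 6.55-fold and Nkd1 5.18-fold, while Apcdd1, a membrane inhibitor, was 2063 to 3524 in bulge and 6335 to 12850 in CD34-negative cells and rose 3.47-fold (adjusted p = 0.000296). Of 17 effector genes 5 fell and 2 rose. The partners of β-catenin Tcf7l1 and Tcf7l2 fell 9.12- and 3.70-fold. The target genes Myc and Axin2 rose 1.91- and 1.60-fold, and the call of Axin2 was lost without any 1 of the 8 arrays (adjusted p up to 0.132).

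BMP signalling keeps bulge cells at rest, while TGF-β2 signalling is known to counter it when hair germ cells are activated. Genes of these pathways held more falls than rises. Of 14 ligand genes 4 fell and 1 rose (35.7% called against 19% of all genes, median −0.716, or −0.40 at the bound). Bmp2 fell 8.22-fold, Bmp6 4.58-fold, Tgfb2 2.88-fold and Gdf10 at least 15.4-fold, and Bmp4 rose. Of 13 receptor genes 3 fell and 2 rose (38.5% called against 19% of all genes, median −0.38). Tgfbr3, the co-receptor betaglycan, was 430 to 1232 in bulge and 4497 to 6133 in CD34-negative cells and rose 7.62-fold (adjusted p = 4.06e-05), and Tgfbr2 rose 5.46-fold. Tgfbr1, which pairs with it, fell 2.76-fold. Of 17 inhibitor and binding protein genes 10 fell and 0 rose (median −1.36). Grem1, a secreted BMP antagonist, was 6041 to 9225 in bulge and 67.4 to 167 in CD34-negative cells and fell 67.1-fold (adjusted p = 1.16e-06). Of 15 effector and target genes 8 fell and 0 rose (median −1.34). The BMP target genes Id4, Id3 and Id2 fell 6.84-, 10.2- and 4.96-fold, and Ccn2 17.9-fold.

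Hedgehog pathway genes fell for 7 of 15 members and rose for 0 (median −0.918, or −0.649 at the bound). Gli1, a transcription factor and target of the pathway, was 2423 and 1291 in WT bulge, 1751 and 1888 in Runx1 iTG bulge, 232 and 98.9 in WT CD34-negative cells and 29.6 and 142 in Runx1 iTG CD34-negative cells. The 2 populations were far apart, and Gli1 fell 18.1-fold (adjusted p = 0.000219). The receptor gene Ptch1 was 3138 to 5095 in bulge and 984 to 1524 in CD34-negative cells and fell 3.17-fold (adjusted p = 0.000318). The co-receptor gene Gas1 fell 6.95-fold and Gli2 8.91-fold.

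The Notch, FGF and EGF lists each held calls in both directions. Notch genes rose for 1 of 24 members and fell for 6 (29.2% called against 19% of all genes, median −0.38). The ligand gene Dll1 rose 3.08-fold, the ligand gene Jag1 fell 1.98-fold, and the modifier gene Lfng fell 2.28-fold. Rbpj, the DNA-binding partner of Notch, fell 2.25-fold and Hey1, a target, 7.60-fold. Jag1 did not pass without the genotype term (adjusted p = 0.0587), nor Rbpj with day 20 arrays only (0.0575). FGF ligand and receptor genes rose for 2 of 23 and fell for 5 (30.4% called against 19% of all genes). Their median was −0.69, or 0 at the bound. Fgf18, which keeps follicles in telogen, fell 20.6-fold, Fgfr1 4.34-fold and Fgfr3 6.66-fold. EGF family genes rose for 2 of 15 and fell for 1 (20% called, near the 19% of all genes). Their median of −0.21 turned to 0.0932 under median scaling and 0.0491 under quantile normalization. The ligand gene Nrg4 rose 9.65-fold.

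Immediate early genes, switched on rapidly by growth factors, stress and cell dissociation, rose for 9 of 30 members and fell for 4 (median 0.225). Egr3 was 583 and 1068 in WT bulge, 506 and 1071 in Runx1 iTG bulge, 4340 and 4509 in WT CD34-negative cells and 5730 and 7063 in Runx1 iTG CD34-negative cells. It rose 6.96-fold without overlap (adjusted p = 5.58e-05). Egr2 rose 5.76-fold, Egr1 2.61-fold and Fos 3.04-fold. The call of Fos was lost without the genotype term (adjusted p = 0.0679). Klf4 fell 2.77-fold. Times of handling are not given in the sources used here, and their part in these values was not tested.

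Genes of the extracellular matrix were among the clearest falls. Of 42 measured collagen and niche matrix genes 29 fell and 1 rose (median −1.96). Postn, periostin, was 14010 and 19980 in WT bulge, 18590 and 19340 in Runx1 iTG bulge, 901 and 1145 in WT CD34-negative cells and 280 and 544 in Runx1 iTG CD34-negative cells. It fell 28.3-fold (log2 −4.82, SE 0.32, adjusted p = 5.42e-06). Tnc, tenascin C, fell 38.5-fold, Col1a1 30.2-fold and Fbln1 7.74-fold. The basement membrane gene Nid1 rose 8.05-fold but did not pass with the mean of its probe sets (adjusted p = 0.0567). Integrin and laminin genes fell for 10 of 25 members and rose for 2 (median −0.852, or −0.489 at the bound). Itgb6 fell 27.5-fold, Itgb5 3.80-fold and Lamb3 3.35-fold, while the laminin chain gene Lama4 rose 8.37-fold and Itga7 was at least 5.91-fold brighter.

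Genes of epithelial differentiation were lower as well. Of 26 epidermal differentiation genes 16 fell and 0 rose (median −1.01). Calml3 fell 10.2-fold, Lor, the main protein of the cornified envelope, 4.07-fold, Dsc1, a desmosomal cadherin, 2.43-fold and Sbsn 2.26-fold (adjusted p between 7.1e-06 and 0.000917). The summed signal was 102200 to 140600 in bulge and 40100 to 71180 in CD34-negative cells. Junction genes fell for 10 of 27 members and rose for 3, with a median of −0.029 that turned to 0.27 under median scaling. The gap junction gene Gjb5 fell 3.44-fold, the plakoglobin gene Jup 1.84-fold and Pkp3 1.88-fold, while Cldn8 rose 3.65-fold, Ocln 2.06-fold and Dsg2 1.65-fold. The calls of Ocln and Dsg2 did not hold without WT hair germ replicate 2 and, for Ocln, without 4 other arrays (adjusted p up to 0.0763). Of 41 keratin genes 14 fell and 1, Krt79, rose. Krt24, a bulge keratin, fell 53.9-fold, Krt78 4.62-fold and Krt75 at least 13.4-fold. Genes of the inner bulge and companion layer fell for 7 of 14 members and rose for 1. S100a4, a calcium-binding protein gene, fell 54.6-fold and Timp3 rose 2.96-fold.

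Basal genes of the interfollicular epidermis fell for 8 of 15 members and rose for 2 (median −0.889). The growth factor binding protein genes Igfbp5 and Igfbp3 fell 39.2- and 21.8-fold, and Sparc, a matrix protein gene, fell 13.6-fold. Guidance genes, which steer axons and cell contacts, rose for 7 of 42 and fell for 14. Nrp2, a receptor for semaphorins and VEGF, rose 11-fold, Slit3 10.8-fold and Sema3a at least 7.46-fold, while Sema3e fell 5.63-fold, Plxnb1 4.07-fold and Epha4 4.81-fold. HOX genes, which record position along the body, fell for 11 of 33 members and rose for 0 (median −1.26, or −0.648 at the bound). Hoxd8 was 1636 to 1858 in bulge and 54.7 to 130 in CD34-negative cells and fell 21-fold (adjusted p = 4.44e-06), and Hoxc13, which acts in the hair shaft, fell 13.0-fold.

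Retinoid genes rose for 2 of 19 and fell for 5 (36.8% called against 19% of all genes). Their median was −0.40, or 0 at the bound. Aldh1a1, which makes retinoic acid, was at least 10.7-fold brighter, and the retinoic acid binding and degrading genes Crabp1 (at least 23.4-fold) and Cyp26b1 (8.69-fold) were lower. Interferon and antigen presentation genes rose for 6 of 22 and fell for 0 (27.3% called against 19% of all genes, median 0.254). The immunoproteasome genes Psmb9 and Psmb8 rose 2.62- and 3.05-fold and the transcription factor gene Irf1 3.01-fold. Psmb8 did not pass with the mean of its probe sets (adjusted p = 0.716). Chaperone genes rose for 7 of 24 and fell for 4 (median 0.388), and direction followed the member. The mitochondrial chaperonin genes Hspd1 and Hspe1 rose 3.34- and 2.90-fold and the endoplasmic reticulum gene Canx 2.09-fold, while the small heat shock protein genes Hspb8 and Hspb1 fell 3.32- and 2.41-fold and Hspa2 4.92-fold. Chromatin modifier genes rose for 6 of 41 and fell for 2 (19.5% called, near the 19% of all genes). Their median of 0.0147 was −0.0148 under quantile normalization and −0.0416 under the deposited scaling. Uhrf1 and Dnmt1, which maintain DNA methylation at replication, rose 5.51- and 2.09-fold, Dnmt3b 3.30-fold and Ezh2, the histone H3 methyltransferase of Polycomb, 2.27-fold. Another probe set of Uhrf1 rose by 0.52 on the log2 scale and another of Dnmt3b by 0.81. These did not pass (limma adjusted p over all probe sets = 0.177 and 0.114), though both genes passed with the mean of their probe sets.

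Probe sets for markers of other cells in skin gave some signal, and 0 of their calls were higher in CD34-negative cells. Fibroblast and dermal papilla markers fell for 7 of 19 members, against 9.44% of all genes, and 5 were below background in both populations. Their summed signal was 7517 to 12480 in bulge and 1282 to 2363 in CD34-negative cells. The fibrillar collagen genes Col1a1 and Col1a2 fell 30.2- and 17.5-fold, from means of 5210 and 1445 in bulge. Endothelial and mural markers held 3 lower calls of 16 (18.8%, against 9.44% of all genes called lower), and 6 were below background in both populations. The sum was 4614 to 7717 in bulge and 1343 to 1733 in CD34-negative cells. Cspg4, a surface proteoglycan gene, fell 6.98-fold from a mean of 4528, a large part of the bulge sum. Tek and Myh11, with means of 88.3 and 106 in bulge, were at least 2.84- and 3.39-fold lower. Myh11 did not pass with the mean of its probe sets or with day 20 arrays only (adjusted p up to 0.115). Melanocyte markers held 2 lower calls of 14 (14.3%, against 9.44% of all genes called lower), and 7 were below background in both populations. The sum was 2406 to 4863 in bulge and 620 to 1345 in CD34-negative cells. Mitf, a transcription factor gene of pigment cells, fell 4.05-fold from a mean of 2652, a large part of the bulge sum. Dct, with a mean of 62.8 in bulge, was at least 2.02-fold lower but lost its call in 8 of 19 alternatives (adjusted p up to 0.107). Immune markers held 2 lower calls of 20 (10%), near the 9.44% of all genes called lower, and 7 were below background in both populations. The sum was 2374 to 4124 in bulge and 1588 to 2997 in CD34-negative cells. Lyz2 lost its call in 9 of 19 alternatives and Thy1, which the fibroblast list also holds, in 11 of 20 (adjusted p up to 0.112 and 0.201). Markers of Schwann cells (8 measured), Merkel cells (7) and erythroid and muscle cells (6) held 0 calls by limma. The Merkel sum was 241 to 310 in bulge, 223 and 346 in WT CD34-negative cells and 654 and 608 in Runx1 iTG CD34-negative cells. Of the Merkel markers Atoh1 differed by −1.62 (adjusted p = 0.0985) and the keratin gene Krt18 by 1.07 (0.122). The Schwann sum was 2567 to 3390 in bulge and 2032 to 4310 in CD34-negative cells, and the last sum 172 to 522 and 148 to 271. Scn7a of the Schwann list differed by −1.99 (adjusted p = 0.0807) and Alas2 of the last list by −0.58 (0.435). The list medians of −0.63 for Merkel, −0.60 for endothelial and mural and −0.50 for Schwann markers turned to 1.55, 0.712 and 0.174 when dim genes were left out. That filter kept a gene if either population mean reached 130, so a member could stay through its brighter population alone. Atoh1, Krt18, Tek, Myh11 and Scn7a were among those left out, so the turned medians do not describe the whole lists. What other cells contribute to the differences was not tested. The deposited minimum was 1, so no marker was at 0.

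Runx1 itself lay near the threshold between the populations and did not pass by its brightest probe set: it was 658 and 904 in WT bulge, 495 and 489 in WT CD34-negative cells, 19460 and 13700 in Runx1 iTG bulge and 12110 and 12880 in Runx1 iTG CD34-negative cells (log2 −0.52, SE 0.17, adjusted p = 0.0555). It passed as lower in CD34-negative cells in 5 of 20 alternatives: quantile normalization, the deposited scaling, the mean of its probe sets (log2 −1.21, adjusted p = 0.0165), without dim genes and without Runx1 iTG bulge replicate 2. Of its 6 probe sets, all with lower values in CD34-negative cells, 2 dimmer ones passed over all probe sets (log2 −1.61 and −1.83, limma adjusted p = 0.0125 and 0.00984). The genotypes were far apart in both populations, and within each genotype bulge was the brighter. Of 11 RUNX and TLE genes, which include co-repressors of the family, 1 rose and 2 fell. That is 27.3% called, against 19% of all genes. Tle2 fell 2.77-fold, Tle4 fell 2.61-fold and Tle3 rose 1.74-fold. Tle4 did not pass without the genotype term or with day 20 arrays only (adjusted p up to 0.0782), and Tle3 in 10 of 20 alternatives (up to 0.167).

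Taken separately, the population difference passed for 1261 genes in WT (6.93%), with 571 higher (3.14%) and 690 lower (3.79%), and for 1775 in Runx1 iTG (9.76%), with 818 higher (4.5%) and 957 lower (5.26%). These comparisons share no arrays. Genes are not independent replicates, but across all 18193 of them the differences correlated with Pearson's r of 0.591, and with 0.849 across the 10830 genes at or above the median signal of 130 in a population. Signs matched for 70.4% and 79.2%. The test of the difference between genotypes, the interaction, gave 0 genes by limma, with 839 at an unadjusted p under 0.05 and a smallest adjusted p of 0.91.

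The 6 genes nearest to an interaction are given as values only, each with an adjusted p of 0.91. Rassf6 was 92.0 and 73.6 in WT bulge, 79.9 and 160 in WT CD34-negative cells, 3.70 and 2.42 in Runx1 iTG bulge and 234 and 199 in Runx1 iTG CD34-negative cells. Plau, the urokinase gene, was 273 to 580 in 6 arrays and 3255 and 2771 in Runx1 iTG CD34-negative cells. Dsc2 was 41.8 to 135 in the same 6 arrays and 917 and 628 in Runx1 iTG CD34-negative cells. Dusp26, a phosphatase gene, stood out in WT CD34-negative cells, at 518 and 243 against 15.8 to 99.9 elsewhere. Cxcl14, a chemokine gene, fell in both genotypes, with log2 differences of −2.64 in WT and −4.39 in Runx1 iTG, and Avpr1a rose in both (6.93 and 4.99).

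**Figure D5:**
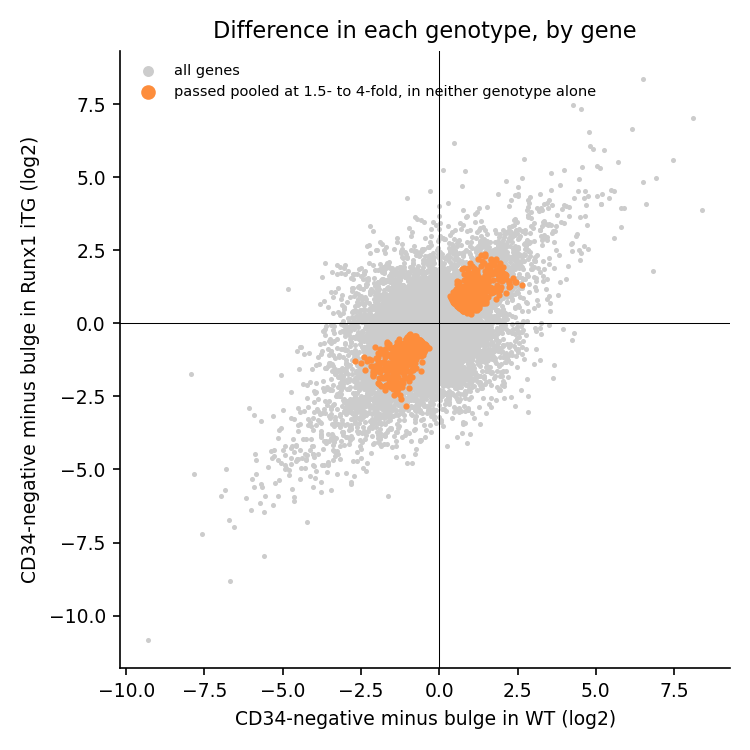
Log2 difference, CD34-negative minus bulge, in Runx1 iTG against the same difference in WT, 1 point per gene. Grey points are all 18193 genes and orange points are the 1196 genes that passed pooled at 1.5- to 4-fold but in neither genotype alone. Orange points lie in the upper right and lower left parts, since all 1196 had one sign in both genotypes.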

How the data were processed

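For each of 8 arrays, the authors deposited processed intensity (linear, 45101 probe sets). From the values, the mean without the top and bottom 2% was 500 on each array and the minimum was 1. Per the labels' protocols, 5 ng of RNA extracted with a QIAGEN RNeasy micro kit was amplified and labelled with NuGEN kits. The sources used here do not name the summarising program.

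The 64 control probe sets were dropped, arrays were set to the same 75th percentile, 2.42 was used as a floor and values were put on the log2 scale. Names came from the platform annotation (34945 with 1 symbol, 932 with several, 9160 with none), and 34741 matched a RefSeq gene by Entrez identifier. The brightest probe set stood for each of 18193 genes. Background, 31.1, was the 95th percentile of 27 bacterial control probe sets. Where the dimmer population's mean lay below it, the brighter mean over 31.1 is given as "at least N-fold". A list's median "at the bound" puts such members at the bound and those dark in both populations at 0.

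With limma 3.58.1 in R 4.3.3, genotype and population were fitted additively to 8 arrays (n = 4 per population, residual degrees of freedom 5, total 10.8) with an intensity trend and Benjamini-Hochberg adjustment over all genes, two-sided. A model with a mean per group gave the contrasts within a genotype and the interaction. The fit was also run on simulated data with independent normal noise at the fitted variances and with no genotype, sex or animal effect. No result here rests on that run. Signals in the text are scaled signals, and differences are CD34-negative minus bulge. P-values measure the spread among samples labelled biological replicates. Bulge and hair germ samples of a number may come from 1 animal, which the sources used here do not give. Their deviations from the group means correlated at 0.0265 in WT and 0.0822 in Runx1 iTG over all genes, and at 0.0649 and 0.207 over bright genes. With no label tying a number to an animal, the numbers were not taken as pairs, though sex-linked signals differ by number. No arrays held identical values.

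The members and 45 gene lists (893 of 965 genes measured) were chosen with earlier results of these data known. Genes were named by a rule: the sort genes and Runx1; up to 12 per direction at 1.5- to 4-fold by p and up to 10 above 4-fold by size, among calls without overlap whose brighter mean reached 130; up to 4 per direction of each list by p, or 2 where none passed; and 6 by the interaction. Xist, Y-linked genes and clone-type symbols were left out of all but the lists. Cdh3, Sox9, Gata6, Mc5r, Mki67, Xist and Kdm5d were singled out after their values were seen. Alternatives changed 1 choice at a time: model, scaling, probe sets, dim genes, offset, prior variance and arrays.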

Additional observations from a re-analysis of the deposited data

Results flagged for a closer look

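Of 480 sets of 4 arrays, a named gene in a population, 26 (5.42%) held an array whose log2 distance to its nearest neighbour, as a share of the whole range, exceeded Dixon's 95% critical value. Chance gives about 1 in 20. Runx1 iTG bulge replicate 1 stood out for Hipk2 (756 against 889 to 914, share 0.852), Slc6a6 (13050 against 16290 to 17040, share 0.83) and Fgf1 (200 against 1086 to 1424, share 0.862). The same held on that array for Atp5b (8427 against 7233 to 7363, share 0.883). Runx1 iTG bulge replicate 2 stood out for Secisbp2l (3855 against 2677 to 2774, share 0.902), Sirpa (3358 against 2729 to 2803, share 0.872) and Trps1 (2382 against 1172 to 1295, share 0.859). The same held on that array for Wnt5b (183 against 617 to 703, share 0.903) and Fzd1 (5902 against 3505 to 3710, share 0.891). WT bulge replicate 2 stood out for Kcnk2 (1390 against 507 to 534, share 0.948). WT hair germ replicate 1 stood out for Fzd2 (1232 against 656 to 692, share 0.915) and Axin2 (3942 against 2306 to 2514, share 0.839). WT bulge replicate 1 stood out for Lgr6 (6958 against 4172 to 4505, share 0.85), Fzd6 (2936 against 2298 to 2392, share 0.836) and Pkp3 (8090 against 4997 to 5256, share 0.895). The same held on that array for Rara (1216 against 819 to 867, share 0.855) and Myh11 (68.1 against 117 to 125, share 0.885). Runx1 iTG hair germ replicate 1 stood out for S100a4 (117 against 325 to 386, share 0.857), Klf4 (1693 against 3747 to 4249, share 0.863) and Krt24 (12.2 against 112 to 118, share 0.979). The same held on that array for Irf1 (1176 against 664 to 716, share 0.868) and Stra6 (208 against 345 to 358, share 0.929). WT hair germ replicate 2 stood out for Dll1 (1162 against 2042 to 2154, share 0.914). Runx1 iTG hair germ replicate 2 stood out for Fads1 (281 against 89 to 106, share 0.848), Hdac7 (168 against 433 to 456, share 0.948) and Gfra3 (58.4 against 10.4 to 12.2, share 0.909). No explanation of these values was tested.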

How the results depend on the processing

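Pooled calls kept their sign under every alternative except the mean of probe sets, where 26 of 3461 changed it. The count of pooled calls stayed within 1.5 times of 3461, at 3326 to 3969, under the other models, scalings, probe set, dim gene and offset choices. Under median scaling 2816 genes were higher, 2247 of them and 639 of the lower ones at 1.5- to 4-fold. Without the intensity trend 2412 genes passed, 1063 of them higher, with 1508 at 1.5- to 4-fold, 751 higher. With day 20 arrays only, which leaves Runx1 iTG populations with 1 array each, 2173 passed and 1010 were higher, with 1326 at 1.5- to 4-fold (731 higher and 595 lower). Leaving out 1 array gave 2408 to 3268 calls, 1123 to 1741 higher, 1509 to 2159 at 1.5- to 4-fold and 814 to 1304 of these higher, lowest without WT hair germ replicate 2. In fits of 1 genotype's 4 arrays, 752 genes passed in WT and 832 in Runx1 iTG, and with 1 array left out of all 8, 332 to 1181 and 606 to 1532. Leaving out any WT array gave 332 to 645 in WT, and 1073, 747 and 606 passed in Runx1 iTG without bulge replicate 1, bulge replicate 2 and hair germ replicate 1. The interaction gave 0 to 3 genes, 3 without WT hair germ replicate 2. With the replicate block 3433 genes passed (92.6% of calls kept). The labels do not say that replicate numbers pair the samples, and Acvr2a, Jund, Lgr6 and Rassf6 were lost under the block. Itga6 turned to 0.24 under median scaling, and to 0.00266 and 0.0655 without replicate 1 of Runx1 iTG bulge and of Runx1 iTG hair germ, within a range of −0.13 to 0.0655 when 1 array was left out. List medians turned positive for WNT inhibitors (0.0772, median scaling), WNT ligands (0.187) and junction genes (0.27, both median scaling) and EGF genes (0.0932 median scaling, 0.0491 quantile normalization, 0.278 without dim genes), and without dim genes for endothelial (0.712), Schwann (0.174) and Merkel markers (1.55). The filter on dim genes kept those that reached 130 in either population, so medians without dim genes cover only the members left. The CDK inhibitor median of 0.232 turned to −0.0653 without WT bulge replicate 2. That of erythroid and muscle markers turned from −0.342 to 0.0204 under quantile normalization. Under median scaling 32 of 45 list medians moved by at least their spread among arrays of a population. With the offset of 50 this held for 16, and without dim genes for 13. The replicate number as a term was chosen after seeing the data. The causes were not tested. Signal over background limits genes whose dimmer population is given as a bound, 404 of 3461 calls.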
